A study of Homo sapiens with 12 samples.

Results

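A set of 10 genes of the YAP and TEAD programme were followed through PHF19 knockdown in a pair of breast cancer cell lines. They were CTGF and CYR61 (older names of CCN2 and CCN1), ANKRD1, AMOTL1, AMOTL2, AXL, AJUBA, LATS2, YAP1 and WWTR1, out of 29968 uniquely named genes in the tables. The genes were chosen by name with the siPHF19 against siNT responses already known, among them the opposite response of CTGF in the lines. Their responses to knockdown are therefore given as a description with no test, and nothing is supported with them. Both MDA-MB-436 and BoM-1833 are triple-negative breast cancer lines, and they differ in origin. BoM-1833 is a subline, of another line than MDA-MB-436, selected for growth in bone. Cells were reverse transfected with siRNA at 5 nM in total and used at 72 h. Controls received a non-targeting pool (siNT) and the knockdown groups a mixture of 2 siRNAs against PHF19 (siPHF19), from another supplier than the control pool. Each of the 4 groups had 3 mRNA libraries, 12 in all. The labels do not say whether the 3 came from separate cultures, so every p-value measures only the spread between these libraries.

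The Hippo pathway is a kinase relay that restrains the transcriptional co-activators YAP (YAP1) and TAZ (WWTR1). The kinases MST1 and MST2 activate LATS1 and LATS2, which phosphorylate YAP and TAZ and keep them out of the nucleus. In the nucleus YAP and TAZ bind no DNA themselves but act through TEAD factors, whose core binding site is GGAATG. CTGF, CYR61 and ANKRD1 are the targets most often used to read their activity, and in breast cancer CTGF and CYR61 are known as secreted matrix proteins linked to migration and bone metastasis. Several targets also restrain the pathway's output, namely AMOTL1, AMOTL2 and LATS2. PHF19 is an accessory subunit of Polycomb repressive complex 2.

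Recovered reads numbered between 13.7 M and 24.0 M per library. In the authors' deposited table PHF19 itself fell by 3.36 on the log2 scale (SE 0.11) in MDA-MB-436 and by 3.19 (SE 0.10) in BoM-1833. The mesenchymal markers VIM, CD44 and ZEB1 had reads in every library. Of the receptors that define the triple-negative class only ERBB2 did, the 3 receptors summing to 4.81 to 6.62 RPKM (reads per kb of exon per M reads). VIM, CD44 and ZEB1 summed to 281 to 297 RPKM with siNT and 257 to 269 with siPHF19 in MDA-MB-436. In BoM-1833 their sums were 893 to 977 with siNT and 794 to 817 with siPHF19. Some markers of other cell types moved with the knockdown too. The fibroblast list (5 genes, DCN without a read) summed to 0.474 to 0.553 RPKM with siNT and 0.785 to 0.864 with siPHF19 in MDA-MB-436, and to 3.17 to 3.78 and 4.91 to 5.10 in BoM-1833. Its gene COL1A1 was called higher in each line, per the authors' deposited table (0.61, SE 0.21, and 0.63, SE 0.11). The leukocyte list (4 genes, CD3E without a read) summed to 26.2 to 27.7 with siNT and 19.9 to 22.3 with siPHF19 in MDA-MB-436, where CD68 was called lower (-0.36, SE 0.10, deposited), and to 87.9 to 95.9 and 85.2 to 87.5 in BoM-1833. The endothelial list (3 genes) summed to 0.124 to 0.262 over all MDA-MB-436 libraries and to 2.23 to 3.22 over those of BoM-1833. The part of these genes in the results, the responses of the 10 genes included, was not tested. One control library of BoM-1833, replicate 1, had the highest share of ribosomal RNA reads, 2.40% against 0.600% to 1.45% elsewhere, and results that change without it are given both ways.

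In control cells most of the chosen genes were expressed at a higher level in BoM-1833 than in MDA-MB-436. This does not extend to every target of YAP and TEAD. Among 16 other targets, most were higher in BoM-1833 at an edgeR adjusted p under 0.05. They were MYOF, F3, CRIM1, FOXF2, GADD45B, CCDC80, NT5E, DOCK5, PTPN14, ARHGEF17 and RBMS3. ASAP1, IGFBP3, FJX1 and NUAK2 were higher in MDA-MB-436, and TGFB2 was not called. Levels are given in RPKM, so that genes and lines can be compared, and were tested between the 2 siNT groups with edgeR's quasi-likelihood test, a contrast that did not enter the choice of the genes. ANKRD1 passed the filter on low counts through the BoM-1833 libraries alone and is therefore left out of the counts. The other 9 genes all differed at an adjusted p under 0.05, 7 higher and 2 lower in BoM-1833. The background was high, since 80.9% of the 14562 genes fitted differed too, with 5775 higher and 6004 lower in BoM-1833 and a median log2 difference of -0.03. With a minimum absolute log2 difference of 1, 6 of the 9 genes against 42.2% of all genes passed. The lines differ in origin as well as in everything else that separates these cultures, and these cannot be told apart, nor can a change in the share of expressing cells and a change in RNA per cell.

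**Figure D1:**
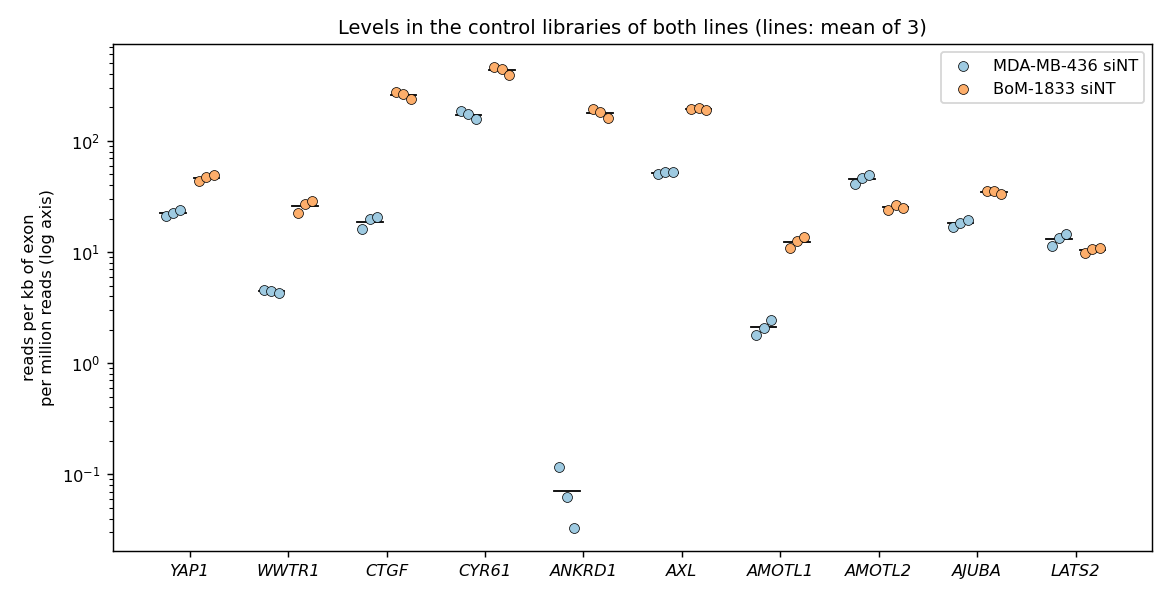
Level of each gene (RPKM, reads per kb of exon per M reads, log axis) in the 3 siNT libraries of MDA-MB-436 (blue) and of BoM-1833 (orange), with horizontal lines at the mean. AMOTL2 and LATS2 are lower in BoM-1833, and ANKRD1 in MDA-MB-436 rests on 8 reads in all.

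The co-activators were both higher in BoM-1833. YAP1 stood at 22.4 ± 1.26 (SD, n = 3) in MDA-MB-436 and 46.9 ± 3.02 (SD, n = 3) in BoM-1833, a 2.09-fold difference (edgeR adjusted p = 1.9e-07). For WWTR1, which encodes TAZ, the levels were 4.43 ± 0.103 and 26.1 ± 3.19 (SD, n = 3 each), a 5.88-fold difference (edgeR adjusted p = 8.4e-10). The balance of the pair also differed: WWTR1 reached 0.198 ± 0.0155 of the level of YAP1 in MDA-MB-436 controls and 0.555 ± 0.0346 in BoM-1833 controls (SD, n = 3 each). With the longest transcript in place of the exon union the WWTR1 levels were 7.41 ± 0.172 and 43.6 ± 5.34, and the ratios 0.284 ± 0.0222 and 0.796 ± 0.0496 (SD, n = 3 each).

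The 3 reporter genes of the pathway differed most unequally. CTGF was 13.8-fold higher in BoM-1833, at 259 ± 18.0 against 18.8 ± 2.41 (SD, n = 3 each, edgeR adjusted p = 8.0e-11). CYR61, the highest of the 10 genes in all 4 groups, was 2.50-fold higher at 431 ± 36.2 against 173 ± 14.3 (SD, n = 3 each, edgeR adjusted p = 9.5e-08). ANKRD1, a nuclear ankyrin-repeat protein, was close to undetected in MDA-MB-436 controls, with 4, 3 and 1 reads per library. In BoM-1833 controls it had 19852 reads over the 3 libraries against those 8, a depth-scaled ratio of 2515 (95% exact interval 1276 to 5825, counting error only). Transcripts of both secreted CCN proteins were thus near the top of the 10 in BoM-1833, while in MDA-MB-436 CTGF averaged below YAP1.

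Of the remaining targets, AXL, a receptor tyrosine kinase, was 3.72-fold higher in BoM-1833 at 193 ± 2.86 against 51.9 ± 1.16 (SD, n = 3 each, edgeR adjusted p = 5.6e-10). AMOTL1 was 5.87-fold higher (12.4 ± 1.32 against 2.11 ± 0.325, SD, n = 3 each, edgeR adjusted p = 4.1e-09). Its relative AMOTL2 went the other way, 1.80-fold higher in MDA-MB-436 (45.5 ± 4.52 against 25.3 ± 1.31, SD, n = 3 each, edgeR adjusted p = 3.2e-06). Angiomotin-like proteins bind YAP and hold it outside the nucleus, and the proportion of the pair differed between the lines: AMOTL2 over AMOTL1 was 21.7 ± 1.31 in controls of MDA-MB-436 and 2.06 ± 0.189 in those of BoM-1833 (SD, n = 3 each). AJUBA, an adaptor that inhibits LATS kinases, was 1.92-fold higher in BoM-1833 (edgeR adjusted p = 5.7e-07). LATS2 was the nearest to equal, 1.25-fold higher in MDA-MB-436 (edgeR adjusted p = 0.011).

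The order of levels within a group depended in part on the length assumed for each gene, so neighbours are compared with both the exon union and the longest transcript. In MDA-MB-436 controls CYR61 led and LATS2, WWTR1, AMOTL1 and ANKRD1 came last, without overlap, by either length. Between them, AXL stood above AMOTL2, YAP1 did not overlap its neighbours and CTGF overlapped AJUBA by the exon union. By the longest transcript AMOTL2 averaged above AXL and overlapped it, YAP1 overlapped AJUBA, and CTGF lay below AJUBA without overlap. In BoM-1833 controls CYR61, CTGF, AXL and ANKRD1 led in that order by either length. AXL overlapped ANKRD1, WWTR1 overlapped AMOTL2 and AMOTL1 overlapped LATS2 by the exon union, but none of these pairs did so by the longest transcript, where AJUBA overlapped WWTR1 instead. After siPHF19, CTGF in BoM-1833 had moved below AXL and ANKRD1 at 178 RPKM, with its highest library just above the lowest of ANKRD1, by either length. In MDA-MB-436 after siPHF19, AJUBA overlapped YAP1 and YAP1 overlapped CTGF by the exon union, and neither pair did by the longest transcript.

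Of the 10 genes, CTGF was the one with called responses in opposite directions, and the stretch before its start is shown for that reason beside the sites of the 2 other genes that carry the same letters. Promoter sequences of RefSeq on GRCh38.p14 were matched for 9 of the 10 genes and searched over 250 bases upstream of the start for GGAATG on both strands. CYR61 had no match and was not searched. For each gene 1 RefSeq start was used, and upstream refers to that start. By the gene spans of GENCODE v29, the windows of AMOTL1 and WWTR1 lie wholly inside their genes. The nearer ANKRD1 site below also lies inside its gene. The motif occurred in 3 of the 9, CTGF, ANKRD1 and YAP1, and in 11.9% of 27305 promoters of the same length. CTGF held it 3 times, at 169 to 164, 104 to 99 and 95 to 90 bases upstream. ANKRD1 held it at 220 to 215 and at 128 to 123 bases upstream, and YAP1 at 162 to 157. A CArG box, the site of the serum response factor, occurred in 0 of the 9 and in 1.14% of all promoters. These matches are letters in a window and show no binding. The sequences run 5′ to 3′ on the strand of the gene, and capitals mark GGAATG.
CTGF, chr6:131951423-131951622, minus strand: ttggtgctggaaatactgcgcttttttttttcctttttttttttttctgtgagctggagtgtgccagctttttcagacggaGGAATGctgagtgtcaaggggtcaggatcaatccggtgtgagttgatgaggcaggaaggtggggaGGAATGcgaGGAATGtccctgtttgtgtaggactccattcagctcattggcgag
ANKRD1 farther site, chr10:90921292-90921317, minus strand: caccaccaaaGGAATGgccctctcac
ANKRD1 nearer site, chr10:90921200-90921225, minus strand: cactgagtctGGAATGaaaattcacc
YAP1, chr11:102110275-102110300, plus strand: ggagtgtgcaGGAATGtagcaacttg

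Knockdown of PHF19 left most of the 10 genes higher in MDA-MB-436 and split them in BoM-1833. The values that follow are the authors' normalized counts, which are comparable only within a line because the tables were normalized separately, and the fold changes and calls (adjusted p under 0.05) are those of the authors' deposited table. In MDA-MB-436, 7 of the 9 genes tested were called, with CTGF, CYR61, AMOTL2, AXL, AJUBA and YAP1 higher and LATS2 lower, beside 22.1% of 14243 genes. In BoM-1833, 4 of 10 were called, AMOTL2 and AJUBA higher and CTGF and LATS2 lower, beside 10.9% of 12906 genes. Since this contrast was known when the genes were chosen, nothing is read from these shares. Without control replicate 1 of BoM-1833 the count there was 7, with ANKRD1 and AXL called higher and AMOTL1 lower.

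**Figure D2:**
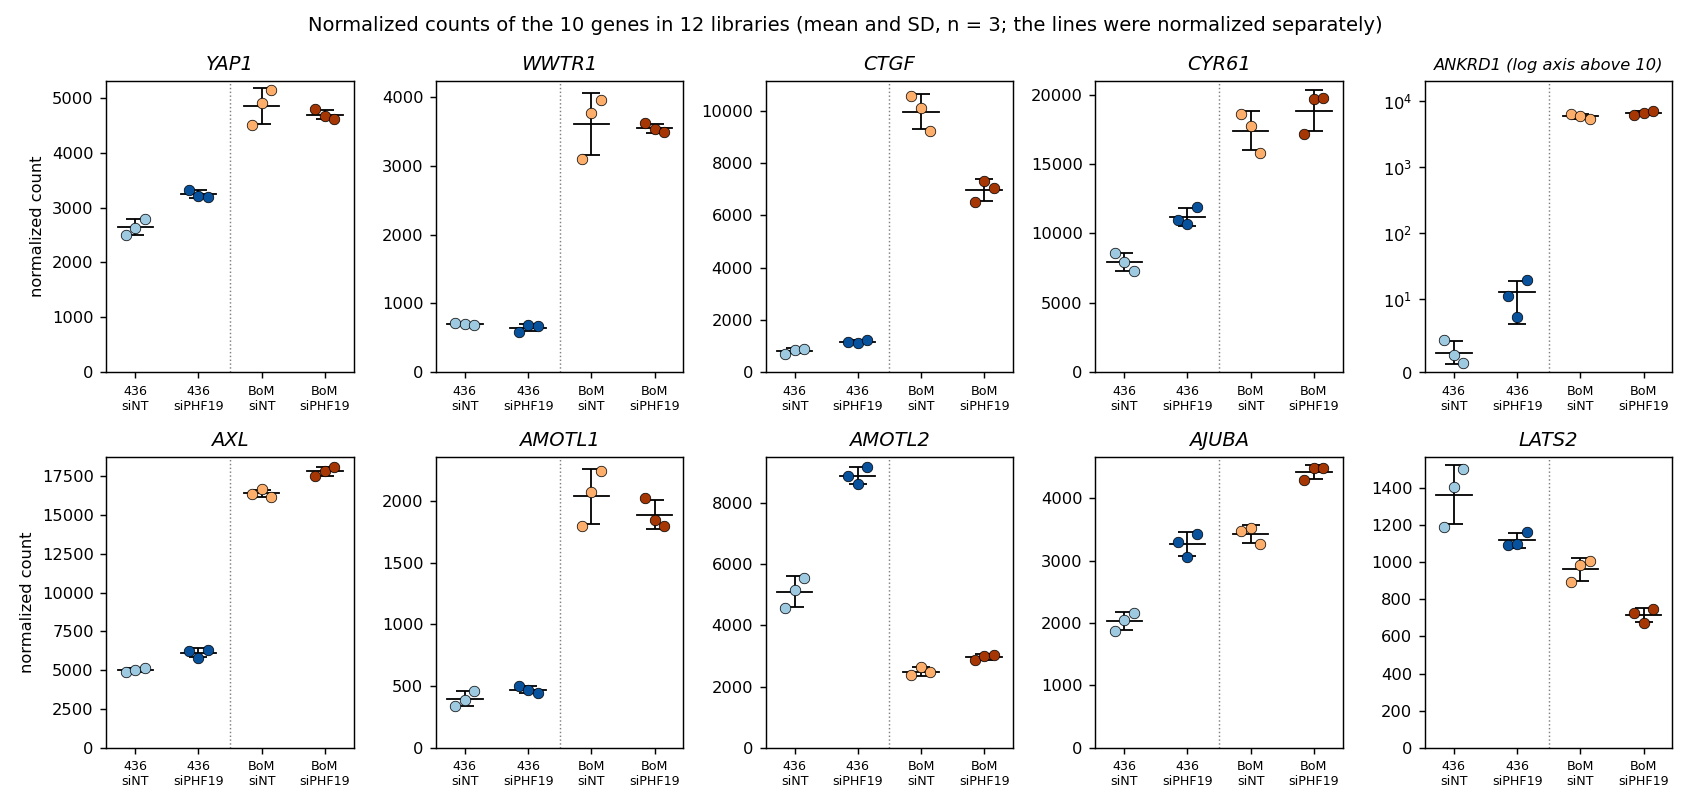
Normalized counts of the 10 genes in every library (points), with group means and SD (n = 3). CTGF is higher after siPHF19 in MDA-MB-436 and lower in BoM-1833, without overlap in either line, and the ANKRD1 axis is logarithmic above 10.

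CTGF (chr6:131948176-131951373, minus strand, GENCODE v29 on GRCh38) encodes a secreted matrix-associated protein. In MDA-MB-436 its normalized counts were 703, 862 and 898 in the siNT libraries and 1170, 1111 and 1220 in the siPHF19 libraries. In BoM-1833 they were 10588, 10103 and 9257 with siNT and 6521, 7338 and 7062 with siPHF19. In neither line did a knockdown library reach the range of the controls, and the side on which it lay was opposite. The deposited log2 fold change was 0.51 (SE 0.11) in MDA-MB-436, 1.42-fold higher, and -0.52 (SE 0.07) in BoM-1833, where the level decreased by 30.2%. The difference of the responses, BoM-1833 minus MDA-MB-436, was -1.02 (SE 0.13), a description with no test. Across 13 alternative fits the change ranged over 0.41 to 0.57 in MDA-MB-436, and BoM-1833 gave -0.57 to -0.47. Even after these changes CTGF in BoM-1833 stayed far above its level in MDA-MB-436, 178 against 26.8 RPKM. Over all genes 734 were called in both lines and 37 of them in opposite directions, 15 with the order of CTGF and 22 with the reverse order.

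CYR61 (chr1:85580761-85583962, plus strand), the closest relative of CTGF among the 10, did not share the fall of CTGF after knockdown in BoM-1833. Its normalized counts in MDA-MB-436 were 8597, 7947 and 7266 with siNT and 10953, 10656 and 11904 with siPHF19. All 3 knockdown libraries lay above the controls, and the deposited log2 fold change was 0.49 (SE 0.08), close in size to that of CTGF. In BoM-1833 the counts were 18622, 17778 and 15828 with siNT and 17141, 19655 and 19756 with siPHF19, groups that overlapped. The deposited log2 fold change there was 0.11 (SE 0.07), not called. The ratio of CTGF to CYR61 within a library shows the contrast directly: it was 0.110 ± 0.0222 with siNT and 0.110 ± 0.00228 with siPHF19 in MDA-MB-436, and 0.602 ± 0.00995 and 0.389 ± 0.0123 in BoM-1833 (SD, n = 3 each). The proportion of the 2 genes was thus about equal with and without knockdown in one line and lower after knockdown in the other, a description with no test.

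**Figure D3:**
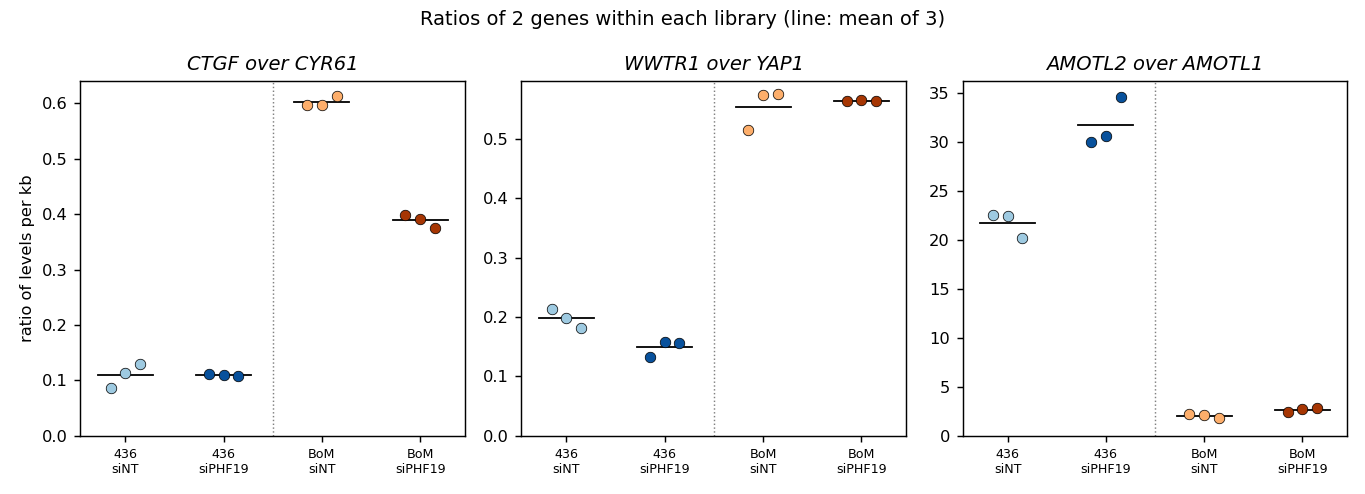
Ratio of the levels per kb of 2 genes within each library (points; lines, mean of 3) for CTGF over CYR61, WWTR1 over YAP1 and AMOTL2 over AMOTL1. CTGF over CYR61 is near 0.110 in both MDA-MB-436 groups and goes from 0.602 to 0.389 in BoM-1833.

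ANKRD1 (chr10:90912096-90921276, minus strand) rested on few reads in MDA-MB-436. The siPHF19 libraries held 10, 9 and 18 reads against 4, 3 and 1 with siNT, a depth-scaled ratio of 4.57 (95% exact interval 2.10 to 11.4, counting error only). The deposited table gives it a log2 fold change of 2.22 (SE 0.83) and no adjusted p. In BoM-1833, where ANKRD1 was abundant, normalized counts were 6268, 5960 and 5240 with siNT and 6110, 6656 and 7106 with siPHF19. The groups overlapped, and the deposited log2 fold change was 0.19 (SE 0.08), not called. Of the 3 reporter genes, then, CTGF alone was called in BoM-1833 with all libraries. Without control replicate 1, ANKRD1 had a log2 fold change of 0.24 and was called as well.

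The co-activators moved little. For YAP1 (chr11:102110461-102233423, plus strand) the counts in MDA-MB-436 were 2506, 2631 and 2797 with siNT and 3325, 3221 and 3197 with siPHF19, without overlap, and the deposited log2 fold change was 0.30 (SE 0.07). In BoM-1833 they were 4509, 4909 and 5149 with siNT and 4797, 4679 and 4629 with siPHF19, all 3 knockdown values inside the control range, and the deposited log2 fold change was -0.05 (SE 0.06). WWTR1 (chr3:149517235-149736714, minus strand) was called in neither line. Its counts were 713, 699 and 680 against 587, 683 and 671 in MDA-MB-436 and 3103, 3764 and 3962 against 3618, 3541 and 3489 in BoM-1833, siNT first. The groups overlapped in both lines, with deposited log2 fold changes of -0.11 (SE 0.10) and then -0.02 (SE 0.08). The ratio of WWTR1 to YAP1 was 0.198 ± 0.0155 with siNT and 0.149 ± 0.0150 with siPHF19 in MDA-MB-436. The BoM-1833 libraries gave 0.555 ± 0.0346 with siNT and 0.565 ± 0.00122 with siPHF19 (SD, n = 3 each). YAP1 has the processed copies YAP1P1 and YAP1P2 in the annotation, so reads could be split between them.

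AXL (chr19:41219203-41261766, plus strand) was higher after knockdown in each library of both lines. Its counts in MDA-MB-436 were 4906, 5015 and 5112 with siNT and 6259, 5782 and 6319 with siPHF19. In BoM-1833 they were 16340, 16682 and 16189 with siNT and 17516, 17882 and 18082 with siPHF19. The groups did not overlap in either line, though the step was small in BoM-1833. In the deposited table the log2 fold change was 0.29 (SE 0.06), called, in MDA-MB-436. For BoM-1833 it was 0.12 (SE 0.05), not called.

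The angiomotin-like genes responded unequally. AMOTL2 (chr3:134355874-134375479, minus strand) had the largest called change of the 10 in MDA-MB-436, with counts of 4566, 5167 and 5555 with siNT and 8874, 8626 and 9165 with siPHF19. In BoM-1833 the counts were 2366, 2633 and 2466 with siNT and 2866, 3003 and 3025 with siPHF19. Both lines moved upward without overlap, with deposited log2 fold changes of 0.80 (SE 0.08) and 0.25 (SE 0.07). The call in BoM-1833 was lost in 3 of 13 alternatives, with a replicate block (0.25), without knockdown replicate 2 (0.24) and without knockdown replicate 3 (0.24). AMOTL1 (chr11:94706431-94876753, plus strand) overlapped between groups in both lines. Its counts were 341, 386 and 461 against 497, 472 and 445 in MDA-MB-436 and 1802, 2077 and 2243 against 2024, 1849 and 1800 in BoM-1833, siNT first. Its deposited log2 fold changes were 0.25 (SE 0.13) and -0.11 (SE 0.09), neither called. Without control replicate 3 the AMOTL1 value in MDA-MB-436 was 0.37 and called.

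Of the genes that act on LATS kinases, AJUBA was higher and LATS2 lower in both lines. AJUBA (chr14:22971174-22982642, minus strand) had counts of 1871, 2050 and 2163 with siNT and 3304, 3055 and 3434 with siPHF19 in MDA-MB-436. In BoM-1833 it had 3482, 3526 and 3262 with siNT and 4292, 4489 and 4481 with siPHF19. No library of one group reached the other, and the deposited log2 fold changes were 0.69 (SE 0.08) and 0.37 (SE 0.06). LATS2 (chr13:20973032-21061547, minus strand), the kinase itself, was the only one of the 10 called lower in both lines. Its counts were 1189, 1404 and 1504 with siNT and 1091, 1099 and 1165 with siPHF19 in MDA-MB-436, and 893, 986 and 1007 against 725, 673 and 748 in BoM-1833. The knockdown libraries lay below the controls in both lines, narrowly in MDA-MB-436, and the deposited log2 fold changes were -0.29 (SE 0.10) and -0.43 (SE 0.09). The LATS2 call in MDA-MB-436 was lost in 6 of 13 alternatives, among them the 5 fits without control replicate 2 or 3 or any 1 of the knockdown libraries (-0.32 to -0.22), and that in BoM-1833 in none.

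**Figure D4:**
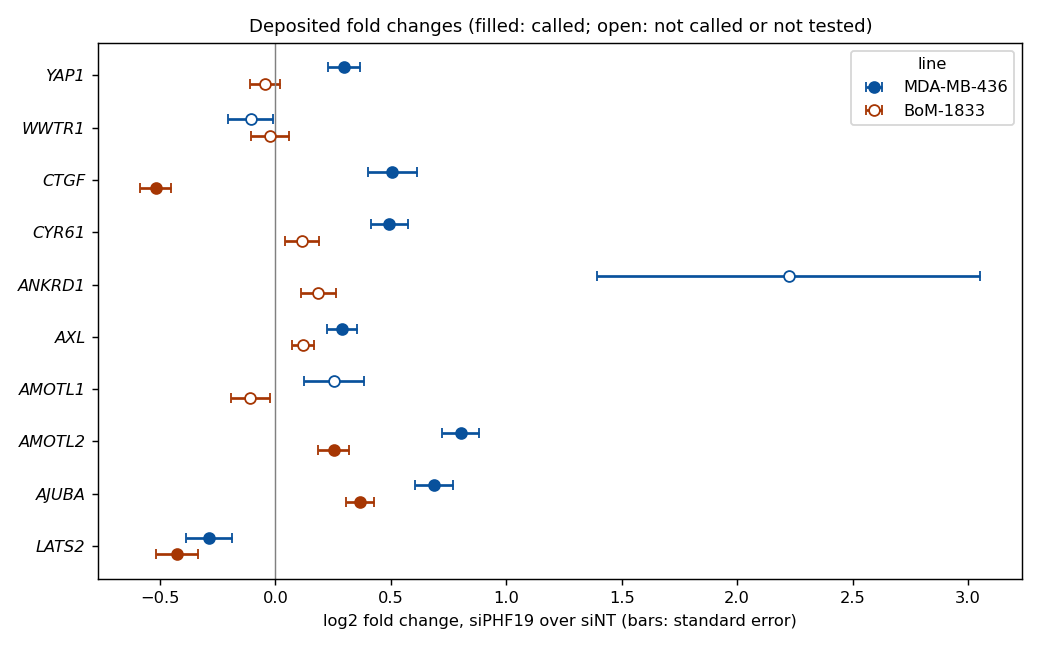
Deposited log2 fold change of siPHF19 over siNT with its standard error for the 10 genes in MDA-MB-436 (blue) and BoM-1833 (brown); filled points were called at an adjusted p under 0.05. CTGF is the gene with filled points on both sides of 0.

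The responses of the 10 genes were also compared between the lines, and the genes were chosen with these responses known. A negative difference is a lower log2 fold change in BoM-1833, which for LATS2, lower in both lines, means a larger fall there. As BoM-1833 minus MDA-MB-436 on the log2 scale, and as a description with no test, the differences were -1.02 (SE 0.13) for CTGF, -0.55 (SE 0.11) for AMOTL2, -0.38 (SE 0.11) for CYR61 and -0.36 (SE 0.16) for AMOTL1. They were -0.34 (SE 0.09) for YAP1, -0.32 (SE 0.10) for AJUBA, -0.17 (SE 0.08) for AXL and -0.14 (SE 0.13) for LATS2. For WWTR1 the difference was 0.08 (SE 0.13), and for ANKRD1, with its few reads, -2.04 (SE 0.83). The controls of both lines differed among themselves in the same genes. In BoM-1833, replicate 1 held the highest CTGF, CYR61 and ANKRD1 and the lowest YAP1, WWTR1, AMOTL1, AMOTL2 and LATS2 of the 3 controls. Replicate 3 there held the lowest CTGF, CYR61 and ANKRD1 and the highest YAP1, WWTR1, AMOTL1 and LATS2. In MDA-MB-436, control replicate 1 held the lowest CTGF, YAP1, AMOTL1, AMOTL2, AXL, AJUBA and LATS2 and the highest CYR61, ANKRD1 and WWTR1. Control replicate 3 of that line held the reverse extremes. Several of these genes have an antisense gene on the other strand (CTGF, AMOTL1, AXL, LATS2, YAP1 and WWTR1). The library kit keeps strand, but whether counting used it is not given in the sources used here, so reads of such pairs may not be told apart. Genes on the same strand overlap others of the 10, among them the protein-coding AL132780.3 for AJUBA and the pseudogene RPL39P5 for AMOTL2. Strand does not separate these.

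The rest of the pathway was described from 6 lists holding 64 genes. In MDA-MB-436, 22 rose and 5 fell of 60 tested, and in BoM-1833, 10 rose and 5 fell of 58 tested, at a deposited adjusted p under 0.05. The shares called, 45.0% and 25.9%, stand beside 22.1% and 10.9% of all genes, and the median log2 fold changes, 0.19 and 0.05, beside -0.00 in both lines. The lists were chosen with earlier results of these data known, so nothing is read from these shares. Both lines called 9 list genes, 7 of them with one sign and 2, IGFBP3 and GAS6, with opposite signs.

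**Figure D5:**
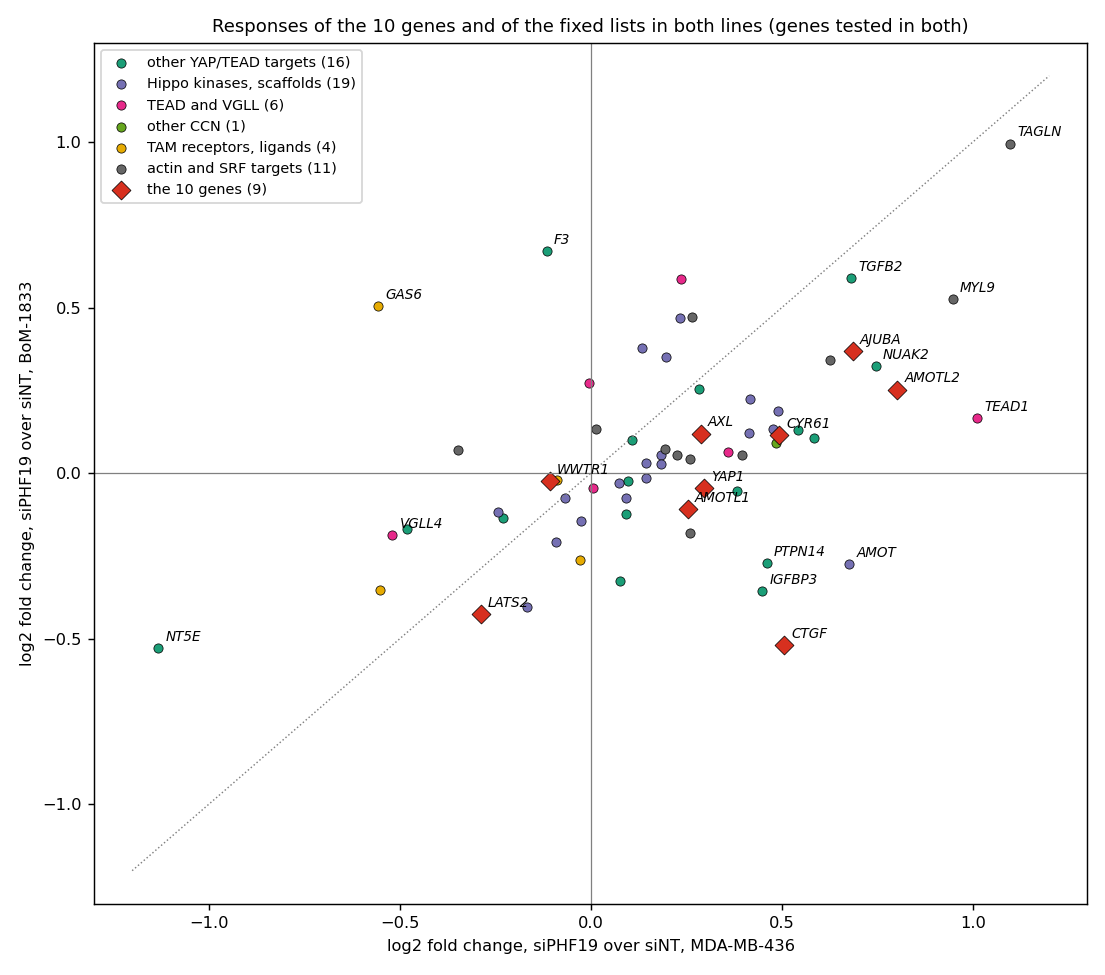
Deposited log2 fold change of siPHF19 over siNT in BoM-1833 against that in MDA-MB-436 for the chosen genes (diamonds, 9 tested in both lines) and the listed pathway genes (points, 57 tested in both). The dotted line marks equal responses; CTGF, AMOT, IGFBP3 and PTPN14 are among the genes in the lower right quadrant, and GAS6 and F3 among those in the upper left.

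Among 16 other YAP and TEAD targets, 7 rose and 1 fell in MDA-MB-436 (median 0.20), and 3 rose and 3 fell in BoM-1833 (median -0.04). Without control replicate 1 of BoM-1833, 10 were called there in place of 6. TGFB2, a growth factor, rose in both. The deposited DESeq2 values were 0.68 (SE 0.08, adjusted p = 9.0e-15) for MDA-MB-436 and 0.59 (SE 0.08, adjusted p = 1.7e-12) for BoM-1833. NT5E, the surface enzyme CD73, fell in both, with deposited DESeq2 values of -1.13 (SE 0.08, adjusted p = 9.6e-42) and then -0.53 (SE 0.06, adjusted p = 1.1e-14). NUAK2, a kinase, rose in MDA-MB-436 (0.75, SE 0.10, deposited DESeq2 adjusted p = 9.7e-13) and was not called in BoM-1833 (0.32, SE 0.21). F3, tissue factor, rose in BoM-1833 (0.67, SE 0.07, deposited DESeq2 adjusted p = 7.3e-21), with -0.11 (SE 0.12) in MDA-MB-436. IGFBP3, a secreted binding protein of insulin-like growth factors, went the same ways as CTGF. The deposited DESeq2 values were 0.45 (SE 0.11, adjusted p = 7.7e-04) for MDA-MB-436 and -0.36 (SE 0.08, adjusted p = 9.4e-05) for BoM-1833. Its call in MDA-MB-436 was lost without control replicate 3 (DESeq2 adjusted p = 0.072).

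AXL belongs with TYRO3 and MERTK to the TAM receptors, and GAS6 is its ligand. GAS6 fell in MDA-MB-436, where normalized counts were 910, 956 and 937 with siNT and 629, 616 and 663 with siPHF19. It rose in BoM-1833, from 4445, 3812 and 4093 to 5601, 6114 and 5814. The groups did not overlap in either line, and the direction was the reverse of that of CTGF. The deposited log2 fold changes were -0.56 (SE 0.09, DESeq2 adjusted p = 7.6e-09) and 0.50 (SE 0.07, adjusted p = 2.3e-11). TYRO3 fell in MDA-MB-436 by 0.55 (SE 0.10, deposited DESeq2 adjusted p = 5.7e-07), with -0.35 (SE 0.14) in BoM-1833. MERTK was called lower in BoM-1833 (-0.26, SE 0.09, deposited DESeq2 adjusted p = 0.049), a call lost in 6 of 13 alternatives, at adjusted p between 0.100 and 0.260. Over the 4 genes of this list, 2 fell in MDA-MB-436, and 1 rose and 1 fell in BoM-1833.

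Of the DNA-binding partners, TEAD1 changed most in MDA-MB-436. It rose there from 1221, 1399 and 1646 to 2977, 2774 and 2842 normalized counts, a deposited log2 fold change of 1.01 (SE 0.10, DESeq2 adjusted p = 2.5e-20). In BoM-1833 TEAD1 had 0.17 (SE 0.09), not called. VGLL4, a cofactor that competes with YAP for TEAD, fell in MDA-MB-436 by 0.52 (SE 0.08, deposited DESeq2 adjusted p = 2.4e-10), with -0.19 (SE 0.08) in BoM-1833. In all 2 rose and 1 fell of 7 tested in MDA-MB-436, and 2 rose of 6 tested in BoM-1833, where 1 was called without control replicate 1. TEAD3 was the other called gene in MDA-MB-436 (0.36, SE 0.12, deposited DESeq2 adjusted p = 0.021). The deposited DESeq2 calls in BoM-1833 were TEAD2 (0.27, SE 0.09, adjusted p = 0.026) and VGLL3 (0.59, SE 0.20, adjusted p = 0.040). These 3 calls were lost in 6, 5 and 6 of 13 alternatives in that order.

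Among 20 upstream kinases and scaffolds, 5 of 19 tested were called in MDA-MB-436, each of them higher, and 1 of 20 in BoM-1833, which was lower. WWC1 (0.48, SE 0.07, deposited DESeq2 adjusted p = 1.5e-10) is a scaffold that promotes LATS activation, and its relatives WWC2 (0.49, SE 0.10) and WWC3 (0.41, SE 0.09), named after their values were seen, rose with it. AMOT, the founding angiomotin, rose by 0.68 (SE 0.13, deposited DESeq2 adjusted p = 5.2e-06) and the kinase TAOK2 by 0.42 (SE 0.07, adjusted p = 7.1e-07). In BoM-1833 AMOT had -0.27 (SE 0.13), called lower without control replicate 1 (-0.37, DESeq2 adjusted p = 0.041). MAP4K4, a kinase that acts on LATS in parallel to MST, fell there by 0.40 (SE 0.06, deposited DESeq2 adjusted p = 3.5e-08). Without control replicate 1 the BoM-1833 count was 5 in place of 1, and without control replicate 3 the MDA-MB-436 count was 9 in place of 5.

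Actin and serum response factor targets, which overlap YAP targets in many cells, gave 7 rising and 1 falling of 12 tested in MDA-MB-436. In BoM-1833 4 of 11 rose. TAGLN rose by 1.10 (SE 0.16, deposited DESeq2 adjusted p = 1.2e-10) and 1.00 (SE 0.25, adjusted p = 0.0015), and MYL9, a myosin light chain, by 0.95 (SE 0.11, adjusted p = 9.4e-15) and 0.52 (SE 0.08, adjusted p = 4.7e-09). TPM1 had deposited values of 0.63 (SE 0.08) and 0.34 (SE 0.08) and CNN2 of 0.27 (SE 0.07) and 0.47 (SE 0.07), all 4 called. CNN2 has 11 pseudogenes in the annotation, so its reads could be split between them. Without knockdown replicate 3 the MDA-MB-436 count was 4 in place of 8. Of the other CCN genes, NOV rose in MDA-MB-436 (0.49, SE 0.09, deposited DESeq2 adjusted p = 3.4e-07) and not in BoM-1833 (0.09, SE 0.10).

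Whether list genes responded differently in the lines was tested as the difference of the deposited log2 fold changes over their joint standard error, adjusted over 12286 genes. Of 57 list genes tested in both lines 13 differed, 9 with a lower and 4 with a higher response in BoM-1833, beside 4.88% of all genes. Because the lists were chosen with earlier results of these data known, nothing is read from this share. An edgeR interaction term called 11 and, with a replicate block, 6. As for CTGF, the log2 fold change after knockdown was lower in BoM-1833 than in MDA-MB-436 for several named genes. Among them were AMOT (-0.95, SE 0.19, z test adjusted p = 3.7e-05), TEAD1 (-0.84, SE 0.13, adjusted p = 1.1e-07) and IGFBP3 (-0.81, SE 0.14, adjusted p = 8.0e-07). WWC1 (-0.34, SE 0.11, z test adjusted p = 0.0482) and MYL9 (-0.42, SE 0.14, adjusted p = 0.0498) were lower too, and passed narrowly. GAS6 (1.06, SE 0.11, adjusted p = 2.2e-18), F3 (0.79, SE 0.13, adjusted p = 8.1e-07) and NT5E (0.60, SE 0.10, adjusted p = 8.4e-07) had the opposite sign in the same z test.

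The 5 genes with the profile most like that of CTGF came from outside the 10 by construction, and ANKRD1 was too low in MDA-MB-436 to be ranked. After each line's mean was subtracted from log2(normalized count + 1), Pearson's r with CTGF over the 12 libraries was highest for DAP (0.956), IRS2 (0.947), GPR176 (0.942), RUSC2 (0.931) and ANO10 (0.924), out of 9835 genes that averaged 100 normalized counts or more in each table. The libraries share their line, their siRNA and their size factors, and r is given as a description. GPR176, an orphan receptor, had deposited log2 fold changes of 0.56 (SE 0.11) for MDA-MB-436 and -0.41 (SE 0.13) for BoM-1833. IRS2, an insulin receptor substrate, had 0.34 (SE 0.13) and -0.29 (SE 0.09) in the same table. Among the chosen genes the same r was 0.682 for YAP1, 0.595 for AMOTL1, 0.479 for AMOTL2, 0.455 for CYR61, 0.402 for AXL, 0.332 for AJUBA, 0.242 for LATS2 and -0.369 for WWTR1.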

How the data were processed

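Messenger RNA was sequenced in 12 libraries. For each line the authors deposited DESeq2 results in a table of 29972 rows. Per the submitters' processing notes, STAR, RSEM 1.3.1, DESeq2 1.46.0 and hg38 were used, with no role given; annotation and strand setting are not given in the sources used here. The deposited library columns hold a signal: read counts that the authors divided by a size factor. The deposited log2 fold changes, their standard errors, the Wald statistic (a score) and the p-values are the authors' own. Whole reads were recovered for 100% of values (tolerance 0.01 read). From them edgeR 4.0.16 (TMM, filterByExpr, quasi-likelihood test, Benjamini-Hochberg) compared the control groups, and levels were scaled by TMM and by the exon length of GENCODE v29. DESeq2 1.42.0 and limma 3.58.1 served as alternatives. Fits of 3 against 3 libraries by edgeR, DESeq2 and limma, and the z test, were run on simulated data with a single dispersion. The edgeR interaction terms, the contrast fitted over 12 libraries and the fits without 1 library were not. The difference between lines was tested as z over joint standard errors. No sequencing batch or date is labelled, and replicates differed by more than sampling noise (chi-square per degree of freedom 2.29 to 24.1 over genes). Groups came from the sample titles. Of the rows, 28 carry names turned into dates, and 2 names occur more than once. Columns of no sample numbered 0.

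The genes, the pathway lists and the tests were chosen with earlier results of these data known. Named besides the chosen genes and PHF19 were, per list and line, up to 3 called genes with the largest Wald statistic, list genes called in opposite directions, and the 5 genes most like CTGF. Alternatives changed the test, the normalization, the filter, the pseudocount, the replicate block, the libraries and the transcript length. Intervals on reads cover counting error only.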

Additional observations from a re-analysis of the deposited data

Results flagged for a closer look

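The response to siPHF19 differed between the lines for CTGF and for 8 genes named from the pathway lists, as BoM-1833 minus MDA-MB-436 on the log2 scale. For CTGF the difference was -1.02, every knockdown library lying above the controls in one line and below them in the other. That difference was not tested, since the gene was chosen for it. By the z test on the deposited values, adjusted over all genes, F3 differed by 0.79, IGFBP3 by -0.81, NT5E by 0.60, AMOT by -0.95, TEAD1 by -0.84 and GAS6 by 1.06. WWC1 (-0.34) and MYL9 (-0.42) passed that test narrowly (z test adjusted p = 0.0482 and 0.0498) and did not pass as an edgeR interaction term (adjusted p = 0.052 and 0.081).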

How the results depend on the processing

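All 130 alternative values of the 10 level differences between the lines kept direction and call. They include ANKRD1, which passed the filter through BoM-1833 alone, and a fit of the siPHF19 groups in place of the controls. Of the alternative values of the 10 responses, 239 kept both, 9 lost the call, 6 gained it and 2 changed sign. Fits without 1 library changed the sign of uncalled values: WWTR1 in BoM-1833 (-0.121 to 0.0472), and MERTK (-0.123 to 0.111) and TEAD2 (-0.0545 to 0.0388) in MDA-MB-436. Without 1 library the counts called in MDA-MB-436 ranged from 5 to 9 for upstream kinases and scaffolds and from 4 to 9 for actin targets. In BoM-1833 they ranged from 3 to 7 for the 10 genes, 4 to 10 for other targets, 1 to 5 for upstream genes, 0 to 1 for TEAD and VGLL genes (2 with all libraries) and 1 to 2 for the TAM list. Without control replicate 1 of BoM-1833, 7 of the 10 genes and 10 of the other targets were called there. Without a filter on low counts, edgeR called 3 upstream genes in BoM-1833 in place of 1. Same-numbered libraries did not deviate together (r from -0.31 to 0.04, against -0.19 to 0.34 for libraries of different numbers). With deviations from means of 3 libraries, this cannot show whether equal numbers mark a shared culture or preparation. With the replicate block, edgeR called 0 TEAD and VGLL genes and 1 TAM gene in BoM-1833 in place of 2 each, and 6 in place of 13 list genes differing between lines; the 10 genes gave 7, 3 and 10 calls in place of 7, 4 and 10. The cause was not tested. Lengths of the longest transcript in place of the exon union moved 25 levels by more than 1 SD and 15 by less. Depth limits ANKRD1 in MDA-MB-436.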

Other observations

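NF2, which encodes the Hippo scaffold Merlin, was close to undetected in MDA-MB-436, and it is named here after its values were seen. The siNT libraries of MDA-MB-436 held 1, 5 and 3 reads of NF2 and the siPHF19 libraries 5, 5 and 2. In BoM-1833 they held 327, 319 and 253 with siNT and 229, 165 and 167 with siPHF19. Scaled for depth, the BoM-1833 controls had 101 times the NF2 reads of the MDA-MB-436 controls (899 against 9 reads, 95% exact interval 53.1 to 222, counting error only, with no test). For the siPHF19 groups the ratio was 59.5 (561 against 12 reads, 95% exact interval 33.8 to 116). NF2 and ANKRD1 were thus both near the limit of detection in the line with the lower CTGF and CYR61.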
